A study of Mus musculus with 6 samples.

Results

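The core circadian clock genes were followed in LβT2 cells, an immortalized line of mouse pituitary gonadotropes, the cells that make the gonadotropins. The 10 genes, *Per1*, *Per2*, *Per3*, *Cry1*, *Cry2*, *Arntl* (also named *Bmal1*), *Clock*, *Nr1d1*, *Nr1d2* and *Dbp*, were taken by symbol from the 47069 genes of the count table. Polyadenylated RNA was sequenced in bulk as 6 libraries, from cells at passage 14, all given gonadotropin-releasing hormone (GnRH) at 2 nM for 40 min. In the 3 fresh samples the pelleted cells were lysed at once, and in the 3 RNA-Best samples they were kept at 4 °C for 4 days or more in RNA-Best, a preservative, before lysis. The comparison asks how far preserved cells keep the transcript levels of fresh ones. No sample went without GnRH, so no response of the clock genes to GnRH could be measured, and the labels give no time of day or clock phase at harvest.

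Total counts were 14477304 to 47438746 in the fresh libraries and 4909418 to 11999363 in the RNA-Best libraries, so every fresh library was the deeper. Across the table, 7479 of the 14736 genes tested passed at an adjusted p of 0.05 (edgeR quasi-likelihood test), which is 50.8%. Of these genes, 3828 were higher in RNA-Best libraries (26%) and 3651 lower (24.8%). The labelled cell type was checked against marker genes. All 6 gonadotrope markers were detected, with a summed level of 3074 to 3117 CPM (counts over the library's total, scaled by 1000000) in fresh and 2572 to 2641 in RNA-Best libraries. Among them *Gnrhr* (log2 fold change 0.43) and *Foxl2* (0.33) were higher in RNA-Best libraries, *Cga* (−0.36), *Nr5a1* (−0.21) and *Pitx1* (−0.22) were lower, and *Lhb* (0.029, adjusted p = 0.775) did not pass the test, though it did with the length correction (0.17, adjusted p = 0.0311). The 6 markers of other pituitary cells summed to 0.789 to 1.11 CPM in fresh and 1.42 to 2.28 CPM in RNA-Best libraries, nearly all of it *Tshb* (0.91, adjusted p = 0.00350, or 0.62 and 0.147 without RNA-Best replicate 1), with *Prl* and *Pou1f1* at 0 in every library. The 5 markers of non-endocrine cells summed to 42.0 to 43.3 CPM and 37.8 to 40.7 CPM, nearly all of it *Pecam1* (−0.15, adjusted p = 0.0150, but 0.0884 with DESeq2, 0.229 with thinned libraries, and 0.0802 and 0.0969 without RNA-Best replicate 1 or 3), with *Ptprc* and *Sox2* at 0. *Gh*, *Pomc*, *Tbx19*, *Col1a1* and *S100b* had at most 7 counts in any library. Where no count was seen, the upper limit (3 counts) was 0.0632 CPM for the deepest library and 0.611 CPM for the shallowest. The part of these marker differences in the results on clock genes was not tested, and in bulk RNA fewer cells of a type and less RNA per cell cannot be told apart.

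The circadian clock is a loop of transcription and translation that runs in most cells. CLOCK and BMAL1, the product of *Arntl*, bind together to E-boxes and switch on the *Per* and *Cry* genes, whose proteins return to the nucleus and block them. In a second loop, the nuclear receptors REV-ERBα and REV-ERBβ, made from *Nr1d1* and *Nr1d2*, repress *Arntl*, and the ROR receptors activate it through the same elements. DBP, a transcription factor itself under E-box control, acts on D-boxes. In the pituitary, gonadotropes carry such clocks, and *Per1* is known as a gene that many signals switch on rapidly.

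The clock genes did not move as one. Of the 10 genes, all of which passed the low-count filter, *Per1*, *Per2*, *Per3*, *Arntl*, *Clock* and *Nr1d2* were higher in RNA-Best libraries, *Dbp* was lower, and *Cry1*, *Cry2* and *Nr1d1* did not pass the test. The 7 genes past the test stand against the 50.8% of all genes that did so, and the 6 that rose against 26%. The log2 fold changes (RNA-Best minus fresh) ran from −0.098 to 0.45 with a median of 0.19, where the median over all genes tested was −0.0074. RNA-Best values lay wholly above fresh values for 7 genes, against 30.4% of all genes, and wholly below for 1 gene, against 27.1%. For the other 2 genes, *Cry1* and *Nr1d1*, the values of both groups overlapped (groups did not overlap for 57.5% of all genes). Against a null of a 1.2-fold change, a stricter test chosen after the data were seen, *Per2*, *Per3*, *Clock* and *Nr1d2* still passed. These are 4 of 10, all higher, where 11.5% of all genes passed, 8.67% higher and 2.82% lower. With every library thinned to 4909268 counts, so that depth was equal, 5 of the 10 passed, again all higher, where 41.5% of all genes did so, 21.7% higher and 19.8% lower.

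**Figure D1:**
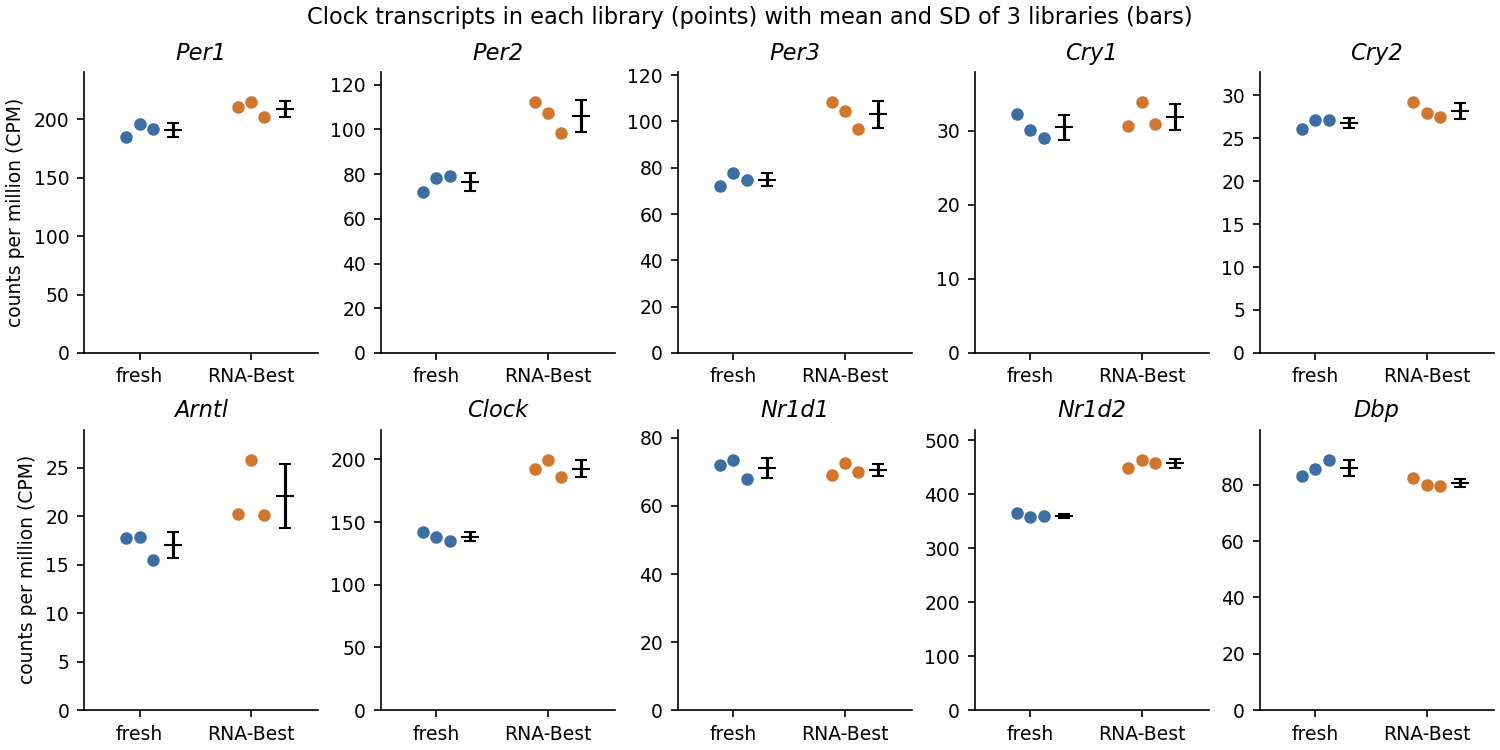
Level of each clock gene in CPM in every library, fresh and RNA-Best, with the group mean and SD (n = 3). *Clock*, *Per2*, *Per3* and *Nr1d2* show RNA-Best points clear of the fresh ones, while the points of *Cry1* and *Nr1d1* intermingle.

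Regulatory letters upstream of these genes are shown first, since the loop is wired through them. RefSeq promoter windows (GRCm38.p6, 250 bases before to 50 bases after the start site) were held for 9 of the 10 genes, 13 windows in all, and *Per2* had none. Each was searched on both strands for the E-box (CACGTG), an E-prime box (CACGTT), the D-box (TTANGTAA), the core of the ROR element (TAGGTCA or TGGGTCA) and the cAMP response element (TGACGTCA). Of all 32851 promoter windows, 7.15% held the E-box, 4.68% the E-prime box, 2.32% the D-box, 2.61% and 3.98% the ROR cores and 1.79% the cAMP response element. Of the 13 clock windows 6 held a motif, and the set shown has 1 window for each kind found, printed 5′ to 3′ on the gene's strand with the motif in capitals. The coordinates are those of the printed bases, the 250 before the start site or, for *Arntl*, 30 around the motif. The *Per1* window (chr11:69098699-69098948, + strand) held an E-box that begins at −166 from the start site. *Per3* (chr4:151044666-151044915, − strand) held D-boxes at −205 and −158. *Cry1* (chr10:85185055-85185304, − strand) held an E-box at −60 and an E-prime box, read from the other strand, at −79. The second *Arntl* window (printed part chr7:113207529-113207558, + strand) held a ROR core at 30, just after the start site.
Per1: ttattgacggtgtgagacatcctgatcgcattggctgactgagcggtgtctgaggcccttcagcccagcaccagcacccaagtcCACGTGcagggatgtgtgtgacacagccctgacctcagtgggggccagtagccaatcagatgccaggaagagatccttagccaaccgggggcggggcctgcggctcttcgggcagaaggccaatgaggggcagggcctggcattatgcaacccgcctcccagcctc
Per3: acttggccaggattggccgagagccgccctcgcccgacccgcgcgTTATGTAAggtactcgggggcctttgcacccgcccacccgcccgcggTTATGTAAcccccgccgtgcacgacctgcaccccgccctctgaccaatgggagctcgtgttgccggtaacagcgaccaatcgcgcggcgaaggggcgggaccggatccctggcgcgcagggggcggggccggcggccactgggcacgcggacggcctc
Cry1: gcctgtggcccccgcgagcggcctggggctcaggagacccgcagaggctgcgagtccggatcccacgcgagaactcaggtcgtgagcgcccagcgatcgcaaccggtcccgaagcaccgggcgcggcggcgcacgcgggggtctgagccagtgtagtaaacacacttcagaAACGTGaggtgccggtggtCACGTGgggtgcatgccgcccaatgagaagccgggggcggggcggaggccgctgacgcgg
Arntl: gaaggcagaaagTAGGTCAgggacggaggt
An E-prime box also stood at −166 in *Cry2* and at −28 in *Nr1d1*. No motif of this set was found in the windows of *Clock*, *Nr1d2* and *Dbp*, the second of *Per1* or the first of *Arntl*. A match is a run of letters in this window only. The genes with a motif ranged in fold change from −0.046 (*Nr1d1*) to 0.44 (*Per3*), and the genes with none from −0.098 (*Dbp*) to 0.45 (*Clock*).

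The activators were both higher in RNA-Best libraries. *Clock* (ENSMUSG00000029238, chromosome 5, 76209868 to 76304792, − strand), which encodes the histone acetyltransferase partner of the pair, had 141.8, 138.2 and 135.2 CPM in fresh libraries and 192.2, 199.8 and 186.1 CPM in RNA-Best libraries. All 3 RNA-Best values lay above all fresh values. The means were 138 ± 3.31 and 193 ± 6.88 CPM (SD, n = 3), a log2 fold change of 0.45 ± 0.033 (SE; adjusted p = 1.38e-13). *Arntl* (ENSMUSG00000055116, chromosome 7, 113207465 to 113314126, + strand), the gene of its partner BMAL1, was the least counted clock gene, with 547 counts over the 3 RNA-Best libraries. Its level was 17.8, 17.9 and 15.5 CPM in fresh and 20.3, 25.9 and 20.2 CPM in RNA-Best libraries. The groups were apart, although RNA-Best replicate 2, the shallowest library, stood well above the other two. The log2 fold change was 0.28 ± 0.079 (adjusted p = 0.00390), with a 95% interval of 0.11 to 0.44. With thinned libraries it was 0.43 (adjusted p = 0.00345).

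All period genes, which encode the repressors that carry the loop's delay, were higher in RNA-Best libraries, by unequal amounts. *Per2* (ENSMUSG00000055866, chromosome 1, 91415982 to 91459324, − strand) had 72.1, 78.5 and 79.2 CPM in fresh libraries and 112.2, 107.5 and 98.3 CPM in RNA-Best libraries. Every RNA-Best value exceeded every fresh value, and the means were 76.6 ± 3.93 and 106 ± 7.04 CPM. This is a log2 fold change of 0.45 ± 0.045 (adjusted p = 1.96e-10). *Per3* (ENSMUSG00000028957, chromosome 4, 151003652 to 151044665, − strand), the period gene whose loss disturbs the rhythm least, followed closely. It had 72.3, 77.7 and 74.6 CPM in fresh and 108.3, 104.5 and 96.7 CPM in RNA-Best libraries. The difference was 0.44 ± 0.043 on the log2 scale (adjusted p = 1.23e-10), again with no overlap. *Per1* (ENSMUSG00000020893, chromosome 11, 69095217 to 69109960, + strand) had more counts than either, at 184.6, 195.8 and 192.2 CPM in fresh and 210.8, 214.7 and 201.8 CPM in RNA-Best libraries. Here too the groups were apart, but by little. The log2 fold change of *Per1* was 0.11 ± 0.033 (adjusted p = 0.00502), with an interval of 0.044 to 0.18. Without fresh replicate 1 it was 0.083 and no longer passed (adjusted p = 0.0514), nor did it with thinned libraries (0.096, adjusted p = 0.0801) or with no low-count filter (0.064, adjusted p = 0.160).

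The cryptochrome genes, whose products are the stronger repressors of CLOCK and BMAL1, did not pass the test. *Cry1* (ENSMUSG00000020038, chromosome 10, 85131700 to 85185064, − strand) had 32.2, 30.1 and 28.9 CPM in fresh libraries and 30.7, 33.8 and 30.9 CPM in RNA-Best libraries. These ranges overlapped. The log2 fold change was 0.018 ± 0.061 (adjusted p = 0.829) with a 95% interval of −0.11 to 0.14. *Cry2* (ENSMUSG00000068742, chromosome 2, 92403646 to 92434043, − strand) had 26.1, 27.2 and 27.1 CPM in fresh and 29.2, 27.9 and 27.4 CPM in RNA-Best libraries. The RNA-Best values were all above the fresh ones, yet by less than the test could call, at 0.059 ± 0.061 (adjusted p = 0.441) with an interval of −0.065 to 0.18.

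The REV-ERB genes, which share a role as repressors of *Arntl*, differed from each other. *Nr1d2* (ENSMUSG00000021775, chromosome 14, 18204054 to 18239127, − strand) was the most highly counted clock gene, at 364.5, 357.4 and 359.4 CPM in fresh and 449.0, 464.4 and 458.6 CPM in RNA-Best libraries. The groups were far apart beside their spread, with means of 360 ± 3.69 and 457 ± 7.77 CPM. The log2 fold change was 0.33 ± 0.028 (adjusted p = 3.48e-12). *Nr1d1* (ENSMUSG00000020889, chromosome 11, 98767932 to 98775333, − strand) had 72.0, 73.6 and 67.8 CPM in fresh and 69.0, 72.5 and 70.1 CPM in RNA-Best libraries. Its values overlapped, with a log2 fold change of −0.046 ± 0.044 (adjusted p = 0.402) and an interval of −0.13 to 0.043. Exons of *Nr1d1* overlap by 263 bases with *Thra*, the thyroid hormone receptor gene on the opposite strand. Whether the counting used strand is not given in the sources used here, so reads there cannot be assigned. *Thra* itself was at 0.12 (adjusted p = 0.0526), and passed with DESeq2 size factors (0.0479), without fresh replicate 2 (0.0301), with the replicate block (0.020) and with the GC correction (0.23, adjusted p = 0.000427).

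*Dbp* (ENSMUSG00000059824, chromosome 7, 45705088 to 45710203, + strand), the clock output factor, was the only one of the 10 called lower in RNA-Best libraries. It had 83.2, 85.7 and 89.0 CPM in fresh and 82.4, 79.8 and 79.6 CPM in RNA-Best libraries. The groups were separated by a narrow gap. The log2 fold change of −0.098 ± 0.041 came close to the threshold (adjusted p = 0.0433). It missed the threshold when any library other than fresh replicate 1 was left out, with adjusted p from 0.059 to 0.20, and also with DESeq2 size factors (0.0501), limma-voom (0.0532), thinned libraries (0.0973) or DESeq2 (0.133). Of the exons of *Dbp*, 18% (539 bases) overlap with *Sphk2*, a sphingosine kinase gene on the opposite strand. *Sphk2* was also lower in RNA-Best libraries, at 121 ± 3.36 CPM in fresh and 105 ± 4.12 CPM in RNA-Best (−0.21, adjusted p = 2.00e-05), and the part of shared reads was not tested.

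**Figure D2:**
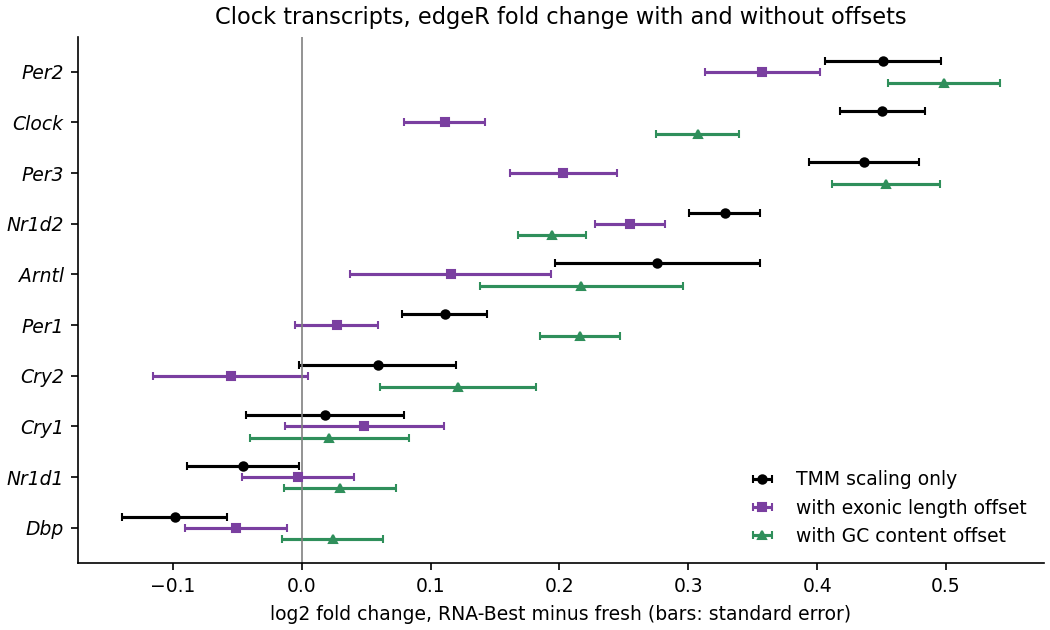
Log2 fold change (RNA-Best minus fresh) of each clock gene with its standard error (edgeR, n = 3 libraries a group), with TMM scaling only and with an added correction (offset) for exon length or for GC content. *Clock* falls from 0.45 to 0.11 with the length correction, and *Per2* from 0.45 to 0.36.

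Fold changes moved with the length of the gene in these libraries, and the clock genes differ widely in length. The median log2 fold change over genes with up to 1 kb of exons was −0.22, over those of 4 to 6 kb it was 0.032, and over those above 10 kb it was 0.32. The share called higher was 6.36% at 1 to 2 kb, 26.4% at 4 to 6 kb, 51.1% at 6 to 10 kb and 76.8% above 10 kb. All clock genes called higher had more than 4 kb of exons. *Clock*, with 13727 bases of exons the longest of the 10, stood at 0.45, and *Dbp*, with 2993 bases the shortest, at −0.098. In all, 9 of the 10 genes were above the median of genes of their own length class. For *Nr1d1* (0.015 above) and *Dbp* (0.030 above) this distance was smaller than the SE of the fold change. With a smooth correction for length in each library, *Per2* (0.36, adjusted p = 7.71e-08), *Nr1d2* (0.25, adjusted p = 3.35e-09), *Per3* (0.20, adjusted p = 0.000168) and *Clock* (0.11, adjusted p = 0.00499) still passed. These 4 of 10 stand against 40.8% of all genes past that test, 15.9% higher and 24.8% lower. *Arntl* (0.12, adjusted p = 0.251), *Per1* (0.027, adjusted p = 0.541) and *Dbp* (−0.051, adjusted p = 0.327) no longer did. The correction removes any part of a change that runs with length, whatever its source.

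Base composition was examined in the same way. *Clock* (40.9% G and C in its longest transcript) and *Nr1d2* (41.8%) were the lowest of the 10, and *Dbp* (61.6%) and *Per1* (59.4%) the highest. After a correction for GC content, 6 of the 10 genes passed the test, all higher, against 48.1% of all genes (22.1% higher and 26% lower). *Per1* stood at 0.22 (adjusted p = 3.07e-07), about double its uncorrected value, and *Arntl* at 0.22 (adjusted p = 0.0213). *Dbp* was at 0.024 (adjusted p = 0.646). *Clock* was at 0.31 and *Nr1d2* at 0.19, both below their uncorrected values, and *Per2* at 0.50 and *Per3* at 0.45. Thus the calls on *Per2*, *Per3*, *Clock* and *Nr1d2* were kept under both corrections, and those on *Per1* and *Arntl* under 1 of them.

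**Figure D3:**
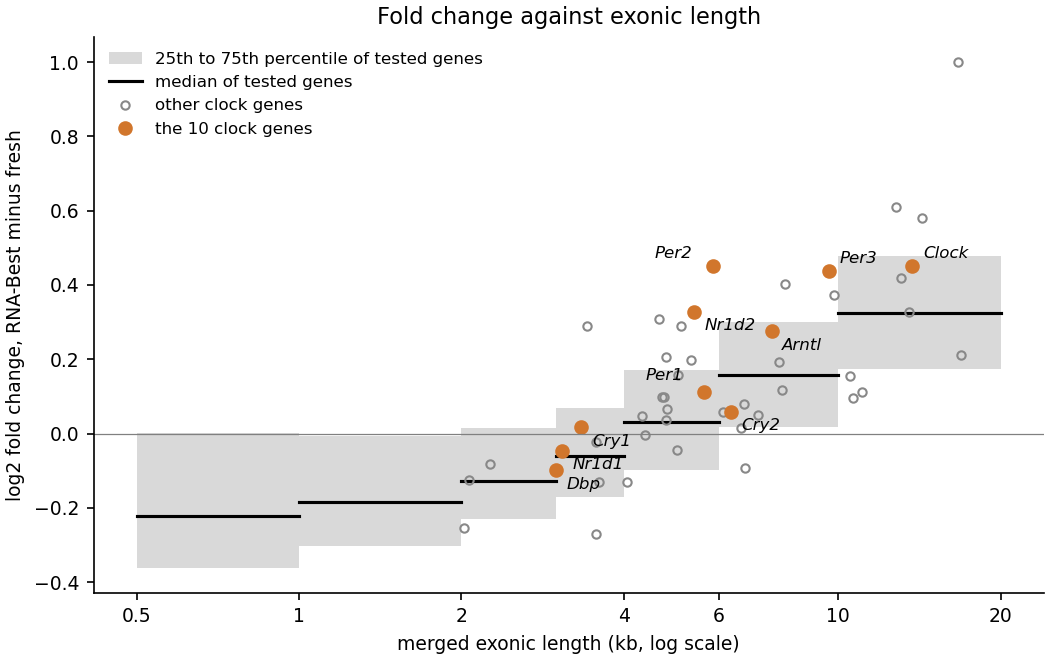
Log2 fold change (RNA-Best minus fresh) of the clock genes against exon length in kb (log axis), over the median (line) and the interquartile range (band) of all genes tested in 7 length classes, with the outer, open classes cut at the edges of the plot and other clock genes as open points. The medians climb from −0.22 to 0.32, and of the 10 genes *Per2* lies farthest above its class.

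Levels were then compared between genes per kb of exons. In fresh libraries *Nr1d2* led at 66.6 ± 0.682 CPM per kb (SD, n = 3), above 93.8% of the genes tested. *Per1* followed at 33.9 ± 1.02, *Dbp* at 28.7 ± 0.973 and *Nr1d1* at 23.1 ± 0.979 CPM per kb. So the genes at the head of the order were output and repressor genes. *Per2* (13.1), *Clock* (10.1), *Cry1* (9.11), *Per3* (7.79) and *Cry2* (4.24 CPM per kb) came next. *Arntl*, the activator on which the loop depends, was the lowest at 2.27 ± 0.183 CPM per kb, above 25.9% of the genes tested. No pair of neighbours in this order overlapped among the fresh libraries. Among RNA-Best libraries the order was the same except that *Per3* (10.7 CPM per kb) came before *Cry1* (9.52), and those ranges overlapped. With the longest transcript as the length in place of all exons, *Dbp* (46.8 CPM per kb) came before *Per1* (40.9) in fresh libraries, *Clock* (14.2) before *Per2* (13.1), and *Per3* (12.5) before *Cry1* (10.1).

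Ratios of related genes inside each library do not depend on depth or scaling. There were 6 pairs, and with 3 libraries against 3 the exact permutation test (two-sided) cannot go below 0.1. The *Per1* to *Per2* ratio of counts was 2.56, 2.5 and 2.43 in fresh and 1.88, 2.00 and 2.05 in RNA-Best libraries. These did not overlap, and the ratio in RNA-Best libraries was 0.792 of that in fresh ones (exact permutation p = 0.1, adjusted over 6 pairs 0.2). *Per1* to *Per3* gave 0.796 and *Nr1d1* to *Nr1d2* gave 0.781, each with no overlap and the same p. These ratios restate the unequal fold changes of the paralogs without any scaling between libraries. They are not corrected for length, in which *Per1* (5631 bases) and *Per3* (9608 bases) differ, as do *Nr1d1* (3077 bases) and *Nr1d2* (5409 bases). The *Cry1* to *Cry2* ratio overlapped between groups, at 1.24, 1.11 and 1.07 in fresh and 1.05, 1.21 and 1.13 in RNA-Best libraries (exact permutation p = 0.9). *Arntl* to *Clock* (0.927 of the fresh ratio, exact permutation p = 0.3) and *Dbp* to *Nr1d1* (0.946, exact permutation p = 0.4) overlapped between groups.

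**Figure D4:**
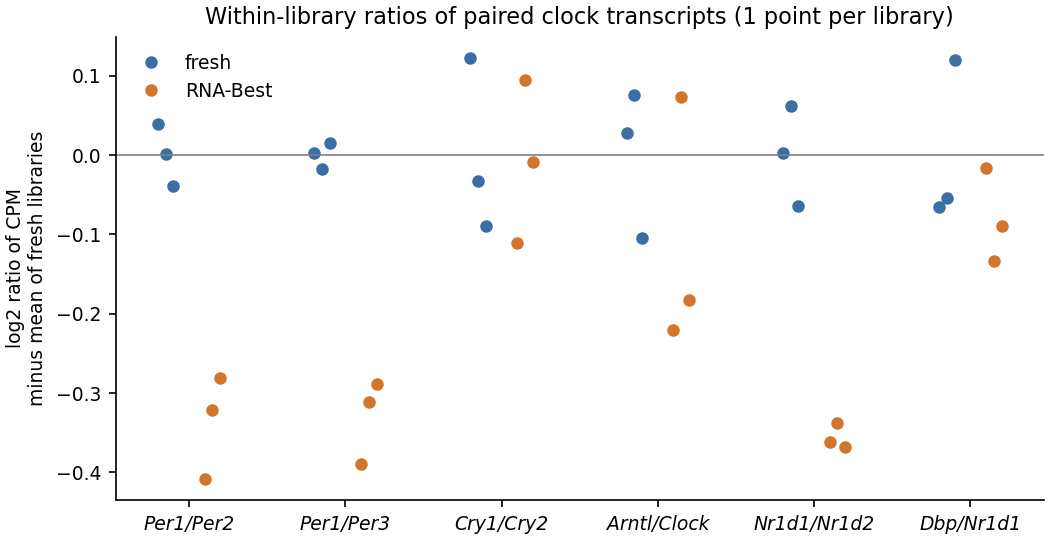
Log2 ratio of the CPM of related clock genes in each library, less the mean of the fresh libraries, with 3 fresh and 3 RNA-Best points a pair. The ratios of *Per1* to *Per2*, *Per1* to *Per3* and *Nr1d1* to *Nr1d2* are lower in every RNA-Best library than in any fresh one, and the other 3 pairs overlap.

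Of 39 further genes of the clock, 38 passed the low-count filter, and 21 of them were higher in RNA-Best libraries, 5 lower and 12 not past the test, with a median log2 fold change of 0.098. That is to be read against 26% higher and 24.8% lower among all genes. After the correction for length the split was 10 higher and 11 lower, against 15.9% and 24.8% of all genes. *Arntl2*, the paralog of *Arntl*, did not pass the filter, with 29 counts over the fresh and 5.25 over the RNA-Best libraries.

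Among the paralogs of the activators and the ROR receptors, 3 of the 4 genes tested rose, against 26% of all genes. *Rora*, whose product activates *Arntl*, was at 12.7 ± 0.323 CPM in fresh and 17.3 ± 1.09 CPM in RNA-Best libraries (0.42, adjusted p = 3.91e-05), but at 0.097 (adjusted p = 0.344) with the length correction. *Npas2*, which can stand in for *Clock*, was at 0.21 (adjusted p = 0.00213), and alone of the 3 stayed higher with the length correction (0.16, adjusted p = 0.0159). *Rorb* was at 0.11 (adjusted p = 0.00197) but turned to −0.17 (adjusted p = 1.17e-05) with the length correction and to −0.025 with the GC correction. Of the 3 other D-box factors, *Tef* (0.12) and *Hlf* (0.079), activators related to *Dbp*, were higher, and *Nfil3* (−0.25, adjusted p = 0.0291), which represses from D-boxes, was lower. None of the 3 passed with the length correction alone (*Nfil3* at −0.17, adjusted p = 0.176), though *Nfil3* did so with the replicate block added (−0.24, adjusted p = 0.0432). *Nfil3* also missed the threshold with the GC correction (0.0840) and DESeq2 (0.0765). *Hlf* missed it with DESeq2 (0.104), no low-count filter (0.615) and the replicate block (0.0579), and *Tef* with no low-count filter (0.0669). Leaving out fresh replicate 3 or RNA-Best replicate 1 or 2 left *Nfil3* short of the threshold (adjusted p from 0.0564 to 0.173), and 4 of the 6 libraries did so for *Hlf* (from 0.0523 to 0.156). *Tef* and *Hlf* both turned to values below 0 with the length correction, at −0.058 and −0.050, and *Hlf* also with the GC correction. Of the E-box repressors, *Bhlhe40* was at 0.098 (adjusted p = 0.0484), and missed the threshold without any 1 library other than fresh replicate 3 (adjusted p from 0.0697 to 0.217). It also missed the threshold with the replicate block (0.0696), DESeq2 (0.135), thinned libraries (0.154) and no low-count filter (0.464). *Bhlhe41* (−0.091) and *Ciart* (−0.082), both named after their values were seen, did not pass, but *Bhlhe41* did so as lower with the length correction (−0.22, adjusted p = 5.29e-05), the GC correction (−0.16, adjusted p = 0.00174), no low-count filter (0.00818) and thinned libraries (0.0459). *Bhlhe40* was at 0.060 with either correction and did not pass.

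Genes that act on clock proteins after translation were called higher more often than lower, though not with the length correction. Of all genes 26% were higher and 24.8% lower, or 15.9% and 24.8% with that correction. Of 8 kinase genes 4 rose, among them *Prkaa2* (0.40, adjusted p = 5.51e-08) and *Prkaa1* (0.31, adjusted p = 6.62e-08), the catalytic subunits of AMP-activated kinase, which marks cryptochromes for destruction. *Gsk3b*, a kinase of several clock proteins, rose by 0.37 (adjusted p = 3.42e-12). With the length correction *Prkaa2* was at 0.22, *Prkaa1* at 0.27 and *Gsk3b* at 0.13. With the GC correction these genes were at 0.26, 0.16 and 0.29, and all passed the test under either correction. *Csnk1a1*, a casein kinase, was at 0.16 and turned to −0.11 with the length correction (adjusted p = 0.00171). *Csnk1d* (−0.097), *Csnk1e* (−0.11) and *Csnk2a1* (−0.097), named after their values were seen, also passed as lower with that correction. *Csnk2b*, the regulatory subunit of casein kinase 2, fell by 0.12 on the log2 scale (adjusted p = 0.00102), but was at −0.037 (adjusted p = 0.356) with the length correction. Of 6 genes for ubiquitin ligases and deubiquitinases 3 rose, among them *Btrc* (0.21, adjusted p = 0.000953), a ligase subunit for period proteins, and *Usp7* (0.19, adjusted p = 2.47e-06), a deubiquitinase. *Usp7* was at 0.021 (adjusted p = 0.622) with the length correction. *Btrc* turned to −0.18 (adjusted p = 0.00684) with the length correction, and with the GC correction *Csnk1a1* (0.036) and *Btrc* (0.067) no longer passed.

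Without the length correction, the cofactors held the largest differences of the clock genes examined. With it, only *Kmt2a* (0.61) among them stood above *Per2* (0.36) and *Wee1* (0.32). Of the 10 cofactor genes 6 rose and 2 fell, against 26% and 24.8% of all genes. Among all genes with more than 10 kb of exons, 76.8% were higher. *Kmt2a*, a histone methyltransferase that works with CLOCK and BMAL1, had 89.9 ± 2.99 CPM in fresh and 183 ± 3.98 CPM in RNA-Best libraries, 2.03 times the level (1.0 on the log2 scale, adjusted p = 1.37e-21). *Ncor1*, the corepressor through which REV-ERBs act, was at 375 ± 14.4 and 580 ± 3.43 CPM (0.61, adjusted p = 1.10e-18). Both are long genes, with 16670 and 12811 bases of exons, and with the length correction they were at 0.61 and 0.29. *Ep300* (0.58) and *Crebbp* (0.33), coactivator acetyltransferases, and *Sirt1* (0.20), a deacetylase, also rose, but with the length correction *Ep300* was at 0.23 (adjusted p = 6.94e-06), *Sirt1* at 0.13 (adjusted p = 0.125) and *Crebbp* at −0.0060 (adjusted p = 0.915). *Sirt1* also missed the threshold with the GC correction (0.087, adjusted p = 0.299), with no low-count filter (0.0940) and without RNA-Best replicate 1 (0.0729) or 2 (0.0674). *Wdr5*, a subunit of methyltransferase complexes, fell by 0.13 (adjusted p = 0.00269), and so did *Hdac3*, the deacetylase bound by *Ncor1* protein (−0.13, adjusted p = 0.00187, named after its value was seen). Neither passed with thinned libraries (adjusted p = 0.165 and 0.108). Of 4 output genes, *Wee1* (0.29, adjusted p = 0.000235), a kinase that holds cells before mitosis, and *Nampt* (0.16, adjusted p = 0.00232), the rate-limiting enzyme of NAD salvage, rose. Without RNA-Best replicate 1, *Wee1* was at 0.15 (adjusted p = 0.0549), and *Nampt* was at 0.0075 (adjusted p = 0.926) with the GC correction and did not pass with thinned libraries (0.225) or no low-count filter (0.0608). *Cdkn1a*, the cell cycle inhibitor p21, fell from 128 ± 6.01 to 106 ± 5.18 CPM (−0.27, adjusted p = 5.83e-07).

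**Figure D5:**
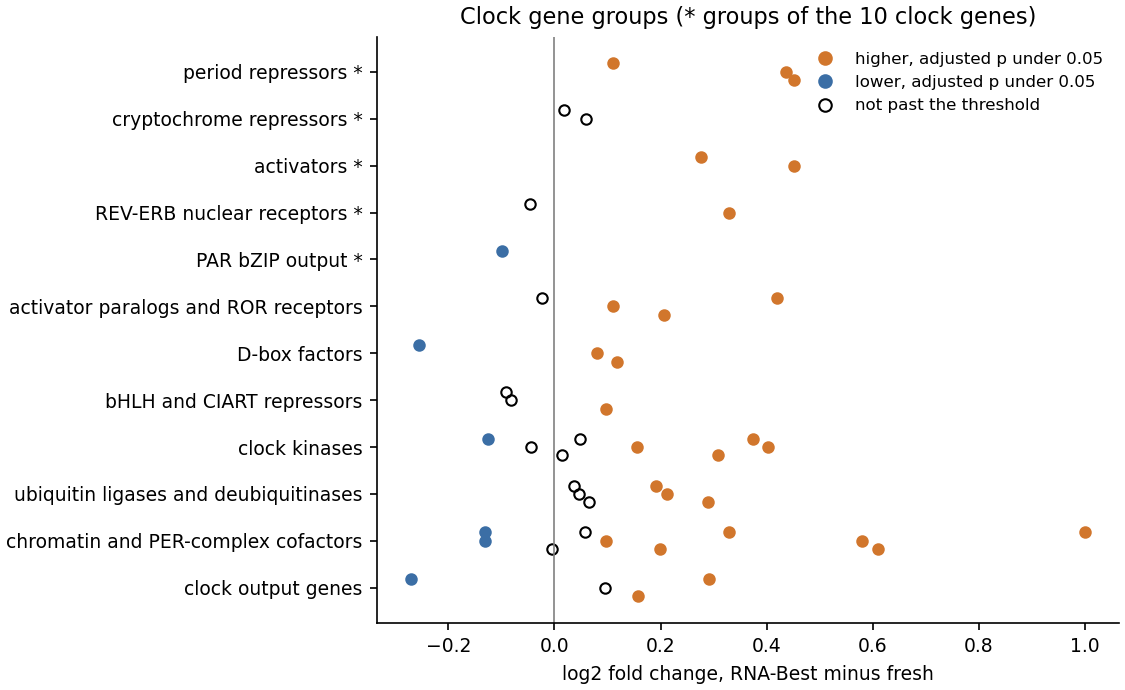
Log2 fold change (RNA-Best minus fresh) of the 10 clock genes and the 38 further clock genes tested, by role, with filled points past the test at an adjusted p of 0.05 (edgeR) and an asterisk on the roles of the 10. Every period and activator gene lies above 0, and *Kmt2a* stands out at 1.0.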

How the data were processed

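Per the labels and the study's methods, polyadenylated RNA was made into Illumina TruSeq libraries and aligned to mm10 with STAR 2.5.1b. The authors deposited 1 table of estimated counts per gene, made with featureCounts 1.5.0-p1 and not normalized. Values that are not whole (tolerance 0.001) make up 9.36% to 16.3% of a library, and rounding was applied before count tests. No row lacked an identifier, and 0 columns belonged to other series. Symbols, positions and exon lengths came from the GENCODE M21 annotation of the same assembly (46574 of 47069 identifiers matched). The settings for strand and for reads that match several genes are not given in the sources used here. CPM is the deposited count over the column total.

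Genes were tested with edgeR 4.0.16 in R 4.3.3 (filterByExpr with a minimum count of 10, TMM scaling, quasi-likelihood F test, Benjamini-Hochberg over the 14736 genes tested, threshold 0.05). The test was checked on simulated counts with 200 genes changed and no trend with length or GC content. That setting is unlike these data, where 50.8% of genes passed, so the check does not show how the test behaves here. Fold changes are given on the log2 scale with SE, and intervals are 95% intervals of the fit. No set test was run. The labels do not say that libraries came from separate cultures, so p-values measure the spread between these libraries only. Alternatives were DESeq2 1.42.0, limma-voom (limma 3.58.1, the tool of the study), RLE scaling, no filter, loess offsets for length or GC content (span 0.5), thinning, each library left out, and the replicate number as a block. The test against a 1.2-fold change was added after the data were seen.

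The clock genes and the lists of related genes were chosen with earlier results of these data known. Named were all 10 genes, up to 6 genes of each other clock list that passed the test with groups apart, genes under the filter, genes sharing exons with the 10, and all markers. A gene that this rule would name is not reported here.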

Additional observations from a re-analysis of the deposited data

How the results depend on the processing

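*Per2*, *Per3*, *Clock* and *Nr1d2* kept their direction and passed the test under all 16 alternatives. *Per1* did so in 10, *Arntl* in 13 and *Dbp* in 3. *Dbp* turned to 0.024 with the GC correction. The count of clock genes lower was 0 under RLE scaling, DESeq2, limma-voom, the length and GC corrections, thinning, the block with length correction and the 1.2-fold test, and 0 to 1 with a library left out. The clock genes past the test were 4 with the length correction, with the block and length correction, and with the 1.2-fold test. The genes past the 1.2-fold test were 1693 of the whole table (1277 higher, 416 lower), and 2347 of the whole table were higher with the length correction, 2320 with the block added. The other clock genes were 5 higher and 0 lower in the 1.2-fold test, 10 and 11 with the length correction, and 9 and 12 with the block added. With a library left out, 6357 to 7273 genes of the whole table, 6 clock genes and 21 to 26 of the other clock genes passed.

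Some values changed sign, and with the length correction *Rorb*, *Csnk1a1* and *Btrc* passed the test in the opposite direction. So did *Csnk2a1* (0.049 to −0.097), *Noct* (0.096 to −0.17) and *Csnk1e* (0.015 to −0.11), which had not passed without it and were named after their values were seen. *Cry1* was at −0.029 with no filter and at −0.0042, −0.0014 and −0.0089 without fresh replicate 2, fresh replicate 3 or RNA-Best replicate 2 (up to 0.063 without fresh replicate 1). *Cry2* was at −0.055 with the length correction and −0.053 with the block added. *Nr1d1* was at 0.030 with the GC correction and 0.018 with the block and length correction. *Lhb* was at −0.019 with no filter. With a library left out, *Cry2* ranged from 0.032 to 0.091 and *Nr1d1* from −0.068 to −0.022. With the length correction, and with the block added, *Rorb* was at −0.17 and −0.17, *Tef* at −0.058 and −0.063, *Hlf* at −0.050 and −0.059, *Csnk1a1* at −0.11 and −0.11, *Btrc* at −0.18 and −0.21, and *Crebbp* at −0.0060 and −0.0066. With the GC correction *Rorb* was at −0.025 and *Hlf* at −0.018. The cause was not tested. The *Cry1* to *Cry2* log2 ratio turned from −0.0085 to 0.053 without fresh replicate 1 and to 0.043 without RNA-Best replicate 1, and ranged from −0.060 to 0.053 with a library left out. The log2 ratio of *Arntl* to *Clock* (RNA-Best minus fresh) then ranged from −0.20 to −0.055 and that of *Dbp* to *Nr1d1* from −0.11 to −0.020. With the longest transcript as length, fresh levels in CPM per kb were 40.9 for *Per1*, 12.5 for *Per3*, 10.1 for *Cry1*, 6.74 for *Cry2*, 4.27 for *Arntl*, 13.1 for *Per2*, 14.2 for *Clock*, 26.2 for *Nr1d1*, 77.3 for *Nr1d2* and 46.8 for *Dbp*.

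Same-numbered libraries did not deviate together (correlations of deviations −0.00563, 0.0355 and 0.00243 over 14736 genes), and 3 of 6 libraries correlated best with their own number. With the replicate number as a block, 7472 genes of the whole table, 7 clock genes and 24 of the other clock genes passed. The shallowest library held 4909418 counts, and *Arntl*, the least counted clock gene, had the widest interval of the 10.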
